A study of Saccharomyces cerevisiae with 5 samples.

Results

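The genes described here carry the branch of purine synthesis that leads from inosine monophosphate (IMP) to guanine nucleotides in budding yeast, Saccharomyces cerevisiae. They are the IMP dehydrogenase genes IMD2, IMD3 and IMD4, the GMP synthase gene GUA1 and the guanylate kinase gene GUK1. They were chosen by name, and each was read on the probe set that the platform annotation pairs with it, which gave 5 genes among the 5449 S. cerevisiae genes measured. No probe set is annotated to IMD1, the remaining gene of the IMP dehydrogenase family, and it was not analysed here. RNA was hybridised to 5 Affymetrix expression arrays, of which 2 carried RNA labelled as a PHO2 deletion mutant and 3 carried RNA of the wild-type strain FY4. Both groups grew in batch in minimal medium with glucose, at 30 °C and 300 rpm, and were taken at one cell density during exponential growth. The strain background of the deletion mutant is not given in its own labels, and the design text sets it against FY4. The labels do not say whether replicates came from separate cultures, so the p-values measure the spread between these arrays, which may be technical.

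IMP dehydrogenase turns IMP into xanthosine monophosphate and is the rate-limiting enzyme of guanine nucleotide synthesis. GMP synthase then makes GMP, guanylate kinase makes GDP, and nucleoside diphosphate kinase makes GTP. In S. cerevisiae IMD2 is known as the inducible member of its family: when GTP is plentiful, transcription starts at upstream sites and ends early, and when guanine nucleotides run low, under mycophenolic acid or 6-azauracil for example, it starts downstream and gives the full messenger. IMD3 and IMD4 encode closely related enzymes. PHO2, also named BAS2, encodes a homeodomain protein known to act with Bas1 at purine synthesis genes.

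Values are log2 of the deposited probe set signal unless a fold is named, and a difference is PHO2 deletion minus wild-type. The genes above the background bound of 6.44, the 95th percentile of 1747 annotated probe sets that matched no S. cerevisiae gene, made up 97.3% to 97.9% of all genes on each array. The probe set of PHO2 read 10.07 and 10.84 on the arrays labelled PHO2 deletion, against 10.72, 10.54 and 10.38 on the wild-type arrays, so the groups overlapped (difference -0.09, SE 0.24, adjusted p = 0.825 by limma). It was 0.29 without PHO2 deletion replicate 1 and -0.48 without PHO2 deletion replicate 2, and passed in neither case. The sources used here do not say where its probes lie relative to the deleted part, and a probe outside that part would check nothing, so the group name is used as a label throughout. Of 17 S. cerevisiae ribosomal RNA control probe sets, 14 were lower on both arrays labelled PHO2 deletion than on any wild-type array, with a median difference of -1.06, and the part of this in the results below was not tested. The 3′ minus 5′ signal of the ACT1 control, a measure of RNA integrity, lay between 0.19 and 0.24 on all 5 arrays. Of 7 genes that auxotrophic laboratory strains often lack, 6 were measured and lay above the bound on all arrays. Of these, 2 were called and fell: ADE2, with a difference of -1.63, and URA3, with -0.33 (adjusted p = 0.0379 by limma).

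Within the branch, IMD2 rose on the arrays labelled PHO2 deletion and the other 4 genes did not pass the test. IMD2 rose 2.77-fold. GUA1, IMD3 and IMD4 stood at 86.2%, 88.8% and 94.3% of the wild-type level, and GUK1 at 108%. Thus 1 of 5 members was called, while over all genes limma called 5.05% (275 of 5449), with 3.17% risen and 1.87% fallen. The split between directions depended on scaling, since quantile normalizing the arrays again gave 172 risen and 245 fallen genes, against 173 and 102, and the count of called genes was 23 without wild-type replicate 1, 19 with PHO2 deletion replicate 1 left out and 26 with PHO2 deletion replicate 2 left out. The median difference of the 5 members was -0.08, beside 0.01 over all genes.

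**Figure D1:**
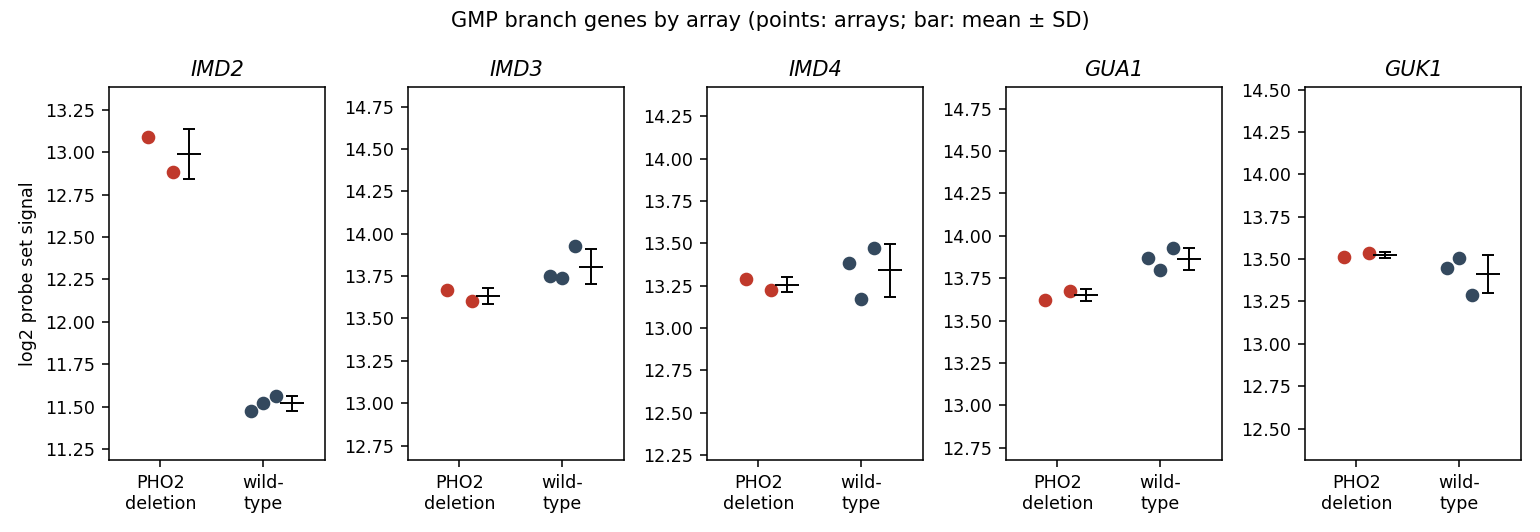
Log2 probe set signal of the 5 genes on the 2 arrays labelled PHO2 deletion (red) and the 3 wild-type arrays (dark), with the mean and SD of each group beside the points; every panel spans the same log2 range around its own centre, and levels cannot be compared between genes. Only in the panel of IMD2 are the groups far apart, at 12.99 and 11.52, and in that of IMD4 they overlap.

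IMD2 (YHR216W, chromosome VIII) was read on a probe set whose identifier ends in _x_at, the manufacturer's mark for probes that may also match other sequences. Its values were 13.09 and 12.89 on the arrays labelled PHO2 deletion, against 11.47, 11.52 and 11.56 on the wild-type arrays. Both arrays of the deletion label were thus more than a log2 unit above every wild-type array. On the linear scale the signals were 8734 and 7566 with the deletion label, against 2844, 2939 and 3022 in wild-type. The mean was 12.99 ± 0.15 (SD, n = 2) in the arrays labelled PHO2 deletion and 11.52 ± 0.04 (SD, n = 3) in wild-type. The difference of 1.47 (SE 0.08, 95% interval 1.27 to 1.67, adjusted p = 0.0023 by limma) corresponds to a fold between 2.41 and 3.19. Among all genes it ranked 24th when ordered from the largest rise downwards, and 14th by p. Of the called genes, 44 rose by at least 1 log2 unit. The call held without any 1 of the 5 arrays, with differences from 1.37 to 1.57.

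The sources used here do not say with which sequences the IMD2 probe set is shared. In all, 116 of the measured genes were read on probe sets marked as shared (_s_at or _x_at), 9 of them called and 8 risen. Of the 17 on an _x_at probe set, 2 were called, and the median difference of the 17 was 0.16. IMD2 itself is in all of these counts, and over all genes 5.05% were called and 3.17% rose. The other 4 members were read on probe sets without such a mark. The probe sets of IMD3 and IMD4 themselves did not rise, as the next values show. IMD1 has no annotated probe set, so whether its RNA adds to the IMD2 signal was not tested.

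IMD3 (YLR432W, chromosome XII) had values of 13.67 and 13.60 on the arrays labelled PHO2 deletion, against 13.75, 13.74 and 13.93 on the wild-type arrays. Both values with the deletion label lay below all wild-type values, but by less than the wild-type range. The means were 13.63 ± 0.05 (SD, n = 2) with the deletion label and 13.81 ± 0.11 (SD, n = 3) in wild-type, a difference of -0.17 (SE 0.08, 95% interval -0.37 to 0.03, adjusted p = 0.212 by limma). This interval includes both 0 and a decrease to 77.2% of wild-type. Without wild-type replicate 3 the difference was -0.11 and did not pass either.

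IMD4 (YML056C, chromosome XIII) is the one member with another annotated gene inside its span, the small nucleolar RNA gene SNR54. It read 13.29 and 13.22 on the arrays labelled PHO2 deletion, against 13.38, 13.17 and 13.47 on the wild-type arrays. The groups overlapped, with wild-type replicate 2 the lowest of all 5 arrays. The means were 13.26 ± 0.05 (SD, n = 2) with the deletion label and 13.34 ± 0.16 (SD, n = 3) in wild-type. The difference was -0.08 (SE 0.10, 95% interval -0.34 to 0.17, adjusted p = 0.607 by limma), within the spread of the wild-type arrays. It was -0.17 without wild-type replicate 2 and -0.02 without wild-type replicate 3, and passed the test in neither case.

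The intervals of IMD3 and IMD4 both end below the lower end of that of IMD2. The comparison of the paralogs with each other was made on the log ratio of their signals within each array, where only its change between groups is read, since signals of different probe sets are not on a common scale. The IMD2 minus IMD3 ratio stood at -0.57 and -0.71 with the deletion label, against -2.28, -2.22 and -2.37 in wild-type. It changed by 1.64, or 3.12-fold. The IMD2 minus IMD4 ratio was -0.20 and -0.34 with the deletion label, against -1.91, -1.65 and -1.91 in wild-type, a change of 1.56 or 2.94-fold. Neither ratio overlapped between the groups, and an exact two-sided permutation test over the 10 splits of the arrays gave p = 0.2 for each, the smallest p that it can give with 2 and 3 arrays. The IMD3 minus IMD4 ratio was 0.38 and 0.38 with the deletion label, against 0.37, 0.57 and 0.46 in wild-type, and changed by -0.09 (exact permutation p = 0.6). That change was -0.14 without wild-type replicate 1 and -0.03 without wild-type replicate 2. Adjusted over the 3 ratios these p-values are 0.3, 0.3 and 0.6.

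**Figure D2:**
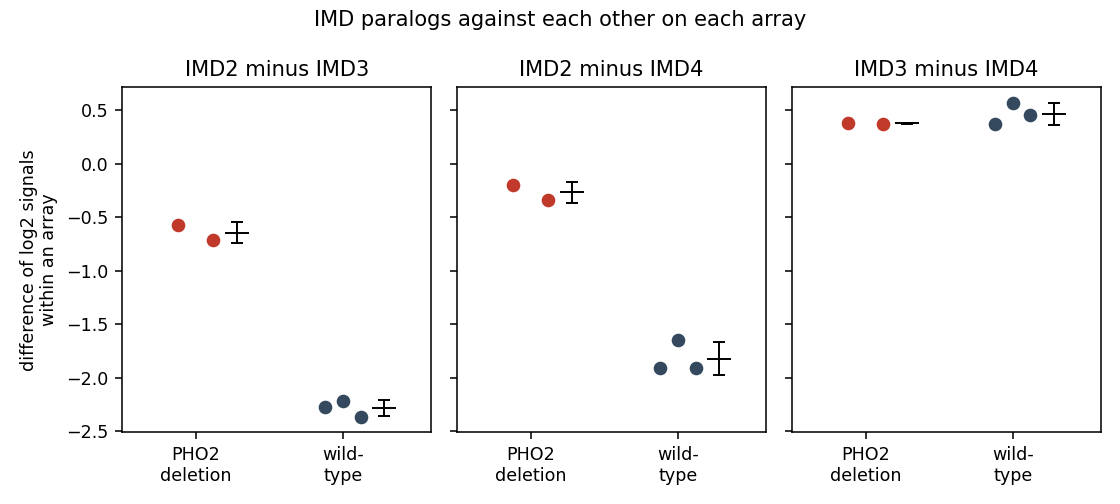
Difference of log2 signals between a pair of IMD genes on each array, for the 2 arrays labelled PHO2 deletion (red) and the 3 wild-type arrays (dark), with the mean and SD of each group. The groups are apart in the 2 panels with IMD2, by 1.64 and 1.56, and overlap in the panel of IMD3 and IMD4.

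**Figure D3:**
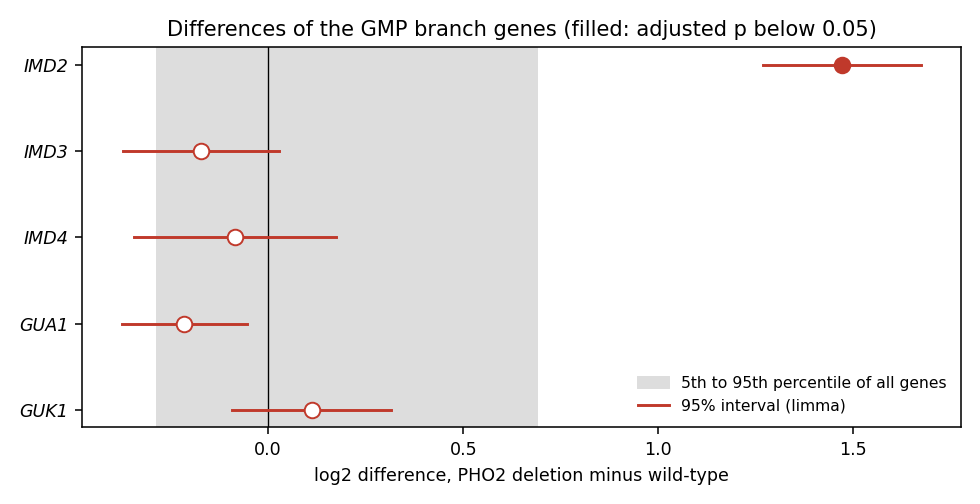
Log2 difference of each gene, PHO2 deletion minus wild-type, with its 95% interval from limma; the grey band spans the 5th to the 95th percentile of all 5449 genes, from -0.29 to 0.69. IMD2 lies beyond the band, and the other 4 genes lie inside it.

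GUA1 (YMR217W, chromosome XIII) encodes the amidotransferase that makes GMP from xanthosine monophosphate. Its values were 13.62 and 13.67 on the arrays labelled PHO2 deletion, against 13.87, 13.80 and 13.93 on the wild-type arrays. Both values with the deletion label lay below all wild-type values. The means were 13.65 ± 0.04 (SD, n = 2) with the deletion label and 13.86 ± 0.07 (SD, n = 3) in wild-type. The difference was -0.21 (SE 0.06, 95% interval -0.38 to -0.05, unadjusted p = 0.0180 and adjusted p = 0.111 by limma). Its interval, which is not adjusted for the number of genes, leaves out 0, and an unadjusted p below 0.05 was found for 1603 of the 5449 genes.

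GUK1 (YDR454C, chromosome IV) encodes guanylate kinase, the enzyme of the step from GMP to GDP. It read 13.51 and 13.54 on the arrays labelled PHO2 deletion, against 13.44, 13.50 and 13.29 on the wild-type arrays. The groups did not overlap, but the lower value with the deletion label exceeded the highest wild-type value by less than the range within wild-type. The means were 13.52 ± 0.02 (SD, n = 2) with the deletion label and 13.41 ± 0.11 (SD, n = 3) in wild-type, a difference of 0.11 (SE 0.08, 95% interval -0.09 to 0.31, adjusted p = 0.385 by limma). It was 0.05 without wild-type replicate 3. GUK1 is a short gene of 564 nt, and the 478 genes of 400 to 600 nt had a median difference of 0.26, more than that of GUK1. After a correction for gene length, added after the data were seen, its difference was -0.085 and did not pass the test either.

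Of the 5 members, 2 had both arrays labelled PHO2 deletion above all wild-type arrays (IMD2 and GUK1) and 2 had them below (IMD3 and GUA1). Over all genes 27.1% lay apart in the first way and 25.9% in the second, so that lack of overlap with these few arrays is common. All members lay at least 5.03 log2 units above the background bound on every array. Within wild-type their SDs ran from 0.04 for IMD2 to 0.16 for IMD4, beside a median of 0.09 over all genes. IMD2 was thus among the steadier genes between wild-type arrays, with an SD at percentile 21.6. On the arrays labelled PHO2 deletion its SD was 0.15, beside a median of 0.06 over all genes.

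**Figure D4:**
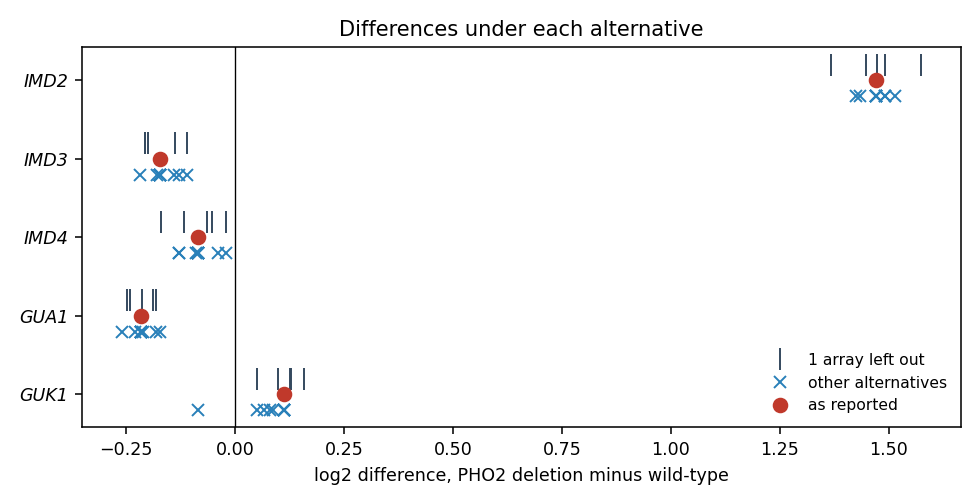
Log2 difference of each gene, PHO2 deletion minus wild-type, as reported (circle), without any 1 of the 5 arrays (bars above) and under the other processing alternatives (crosses below). IMD2 stays between 1.37 and 1.57, and GUK1 is the one gene whose sign turns, at -0.085 after the length correction.

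The profile of a member over the 5 arrays was set against those of all other genes by Euclidean distance, each profile centred on its own mean. The nearest profiles to IMD2 were those of YFL012W (distance 0.12), SAM3, a transporter of S-adenosylmethionine (0.16), and YCT1, a cysteine transporter (0.23). SAM3 averaged 12.94 with the deletion label and 11.50 in wild-type, a difference of 1.44 (SE 0.05, adjusted p = 5.4e-04 by limma). YCT1 averaged 11.71 with the deletion label and 10.15 in wild-type, a difference of 1.55 (SE 0.12, adjusted p = 0.0087 by limma), and missed the threshold when PHO2 deletion replicate 1 (0.0876) or replicate 2 (0.0535) was left out. YFL012W averaged 7.43 with the deletion label and 5.98 in wild-type, where it lay below the background bound. For the 4 members without a call the nearest genes were DML1, LYS21 and BRE2 for IMD3, SLP1, RBG2 and RPF1 for IMD4, RET1, NUP49 and BSP1 for GUA1, and SAR1, RRD1 and MGM101 for GUK1, at distances from 0.03 to 0.05, and none of these 12 passed the test. With 5 arrays in 2 groups, such a distance mainly records the size of the group difference. The differences and calls of these nearest genes thus follow largely from how they were picked, and are no separate evidence.

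On the chromosomes, 20 protein-coding genes were taken as neighbours, up to 2 on each side of every member, and 17 of them were measured. Their differences ran from -0.69 to 0.73 with a median of -0.03, and 1 passed the test. This was ATG23, an autophagy gene beside IMD3, which fell by 0.69 (SE 0.08, adjusted p = 0.0211 by limma) and missed the threshold without wild-type replicate 1 (0.0852), PHO2 deletion replicate 1 (0.14) or PHO2 deletion replicate 2 (0.119). IMD2 is followed by YHR218W and YHR219W at the end of its chromosome in assembly R64, and the acid phosphatase gene PHO12 precedes it; these 3 genes were not analysed here. The one measured neighbour of IMD2, YHR214C-E, did not reach the bound in either group, at 6.34 with the deletion label and 5.73 in wild-type.

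Most measured genes that feed the branch fell. The list of synthesis up to IMP, the substrate of the IMD enzymes, holds 9 genes, of which ADE5,7 was not measured. Of the 8 measured genes, 7 fell and 0 rose, with a median difference of -1.35 beside 0.01 over all genes. Their differences ran from -2.37 for ADE17, which completes IMP, to -0.71 for ADE6 among the fallen, while its isozyme gene ADE16 had a difference of -0.22 (adjusted p = 0.0797 by limma). ADE1, ADE2, ADE4, ADE13 and ADE8 were the others that fell. ADE6 and ADE8 missed the threshold without wild-type replicate 1 (0.0548 and 0.0695), without PHO2 deletion replicate 1 (0.0876 and 0.117) and without PHO2 deletion replicate 2 (0.0598 and 0.0857). In the other branch from IMP, to AMP, with adenine interconversion, 2 of 7 genes fell and 1 rose, with a median of -0.17. ADE13, which acts in both routes, fell by 1.15. ADE12, the adenylosuccinate synthase that competes with the IMD enzymes for IMP, fell by 0.42 (SE 0.05, adjusted p = 0.0211 by limma). APT1, which makes AMP from adenine, rose by 0.46 (SE 0.07, adjusted p = 0.0309 by limma). ADE12 and APT1 missed the threshold without wild-type replicate 1 (0.0896 and 0.129), PHO2 deletion replicate 1 (0.179 and 0.216) or PHO2 deletion replicate 2 (0.127 and 0.154), and with every probe set tested (0.113 and 0.13). APT1 has the same 564 nt as GUK1, and after the length correction its difference was 0.26 and no longer passed (0.0555).

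Salvage offers another route to GMP, and its genes moved in both directions. Of 7 genes of guanine and hypoxanthine salvage and of the purine-cytosine permease family, 2 rose and 1 fell, with a median of -0.07. HPT1, which makes GMP from guanine and IMP from hypoxanthine, averaged 12.19 with the deletion label and 13.49 in wild-type, a difference of -1.30 (SE 0.07, adjusted p = 0.0020 by limma). The permease family genes FCY21 and FCY22 rose, by 3.02 and 1.08, and FCY22 missed the threshold without wild-type replicate 1 (0.0654), PHO2 deletion replicate 1 (0.107) or PHO2 deletion replicate 2 (0.0598). In wild-type FCY22 read 6.60, 6.58 and 6.78, close to the background bound of 6.44. Its difference was 0.82 with the arrays quantile normalized again. The 4 others, XPT1, GUD1, PNP1 and FCY2, differed by -0.24 to 0.18.

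**Figure D5:**
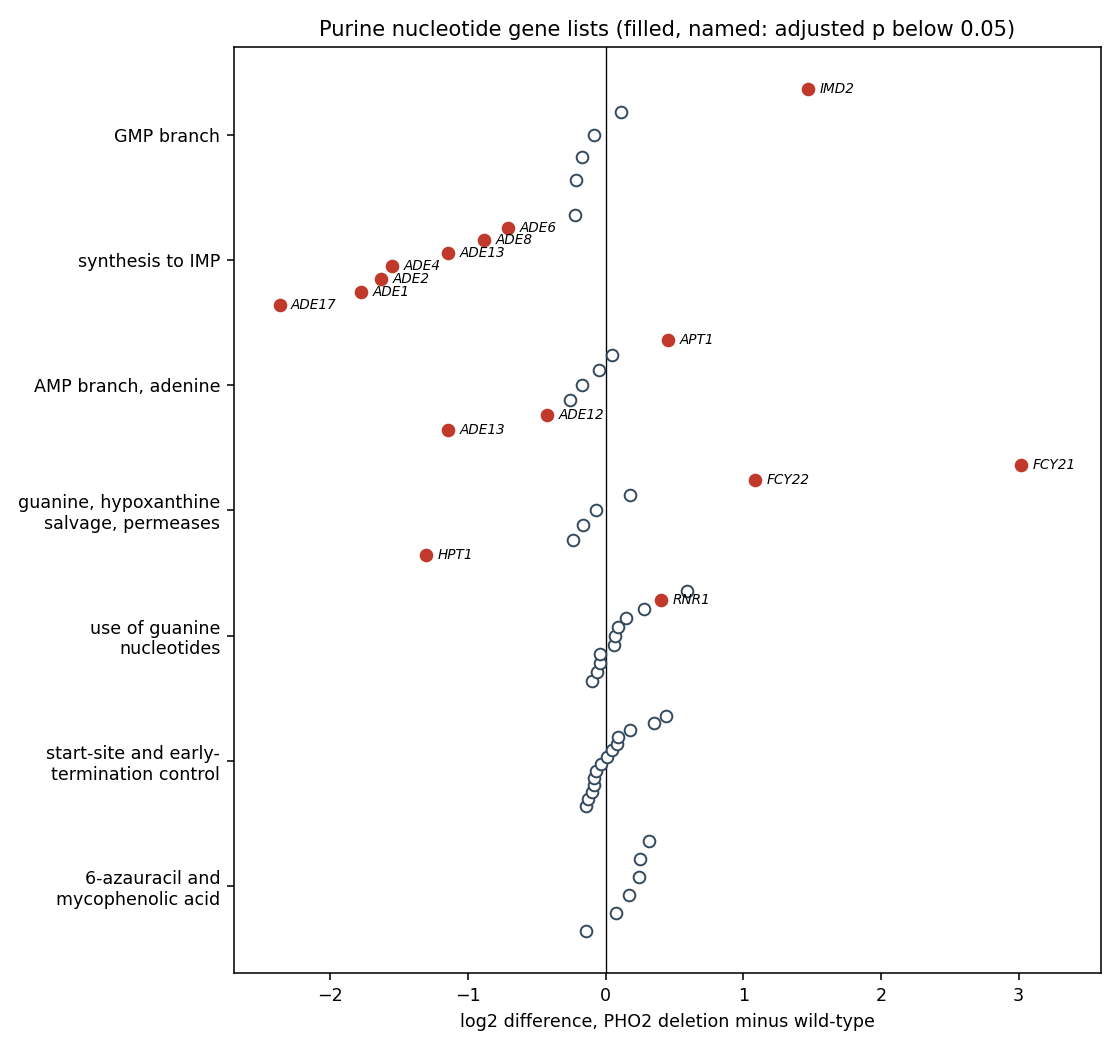
Log2 difference, PHO2 deletion minus wild-type, of the measured genes of 7 lists around the GMP branch; filled and named points passed the test and open points did not. The called genes of synthesis to IMP lie to the left of 0, and IMD2 is the only called gene of the GMP branch.

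Downstream of GUK1, 1 of 11 genes that use or convert guanine nucleotides rose and 0 fell, with a median of 0.07. This was RNR1, the large subunit of ribonucleotide reductase, with a difference of 0.40 (SE 0.05, adjusted p = 0.0267 by limma); it missed the threshold without wild-type replicate 1 (0.0994), wild-type replicate 2 (0.0513), PHO2 deletion replicate 1 (0.182) or PHO2 deletion replicate 2 (0.154). YNK1, the nucleoside diphosphate kinase that acts after GUK1 and was named for that place after its values were seen, read 13.19 and 13.14 with the deletion label, against 12.52, 12.77 and 12.43 in wild-type. Its difference of 0.59 (SE 0.11, adjusted p = 0.0504 by limma) lay at the threshold. It passed in 7 of the 15 alternatives: without wild-type replicate 2 (0.0269), with the arrays quantile normalized again (0.0371) or centred on the median (0.0368), with an eBayes trend (0.0347), with array weights (0.0209), with genes below the bound left out (0.0481) and after the length correction (0.0493). YNK1 has 462 nt and belongs to the short genes described with GUK1; the length correction left a difference of 0.31.

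Factors known to set the start site or the early termination of IMD2 transcription did not pass the test. Of 14 such genes, NRD1, NAB3 and SEN1 of the early termination complex and RNA polymerase II subunits among them, 0 rose and 0 fell by limma and 1 had an unadjusted p below 0.05, with differences from -0.15 to 0.44 and a median of -0.01. The smallest p was that of the polymerase subunit gene RPB9, whose difference was 0.35 (SE 0.14, adjusted p = 0.169 by limma) and which passed without wild-type replicate 2 (0.0418); RPB9 is short, and after the length correction its difference was -0.0073. Of 6 genes linked to resistance or response to 6-azauracil and mycophenolic acid, 0 rose and 0 fell by limma. The unadjusted p was below 0.05 for 4 of them, but such a p was common, found for 1603 of the 5449 genes. The median difference of the 6 genes was 0.21. Within that list SNG1, which encodes a membrane protein linked to nitrosoguanidine resistance, had the smallest p, with a difference of 0.31 (SE 0.07, adjusted p = 0.0691 by limma); it passed with array weights (0.0397) and after the length correction (0.0412). SDT1, the pyrimidine nucleotidase gene that is induced with IMD2 by 6-azauracil in other studies of this yeast, read 11.39 with the deletion label and 11.14 in wild-type, a difference of 0.24 (adjusted p = 0.164 by limma), which was 0.14 without PHO2 deletion replicate 1.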

How the data were processed

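Biotin-labelled RNA was hybridised to Affymetrix yeast arrays, and titles of the samples gave the groups and replicate numbers. In the deposited table each value is the linear intensity of a probe set, from 9.49 to 37719. The submitters' processing notes name R 2.8.0, affy and RMA; that RMA's log2 values were turned back to linear ones is an inference from the values. Quantile normalization, part of RMA, hides a change common to most transcripts. The sources used here do not say which arrays were normalized together. Precision is limited by the number of arrays.

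Of 10928 probe sets, 5498 matched 1 S. cerevisiae gene through the gene number of assembly R64. For 47 genes with several, the brightest was used. Each member has 1 probe set. No probe set was dropped for low signal, and 0 columns of other samples were present.

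The test on log2 values was limma's (version 3.58.1, R 4.3.3; eBayes after lmFit, two-sided, 3 residual and 2.23 prior degrees of freedom), with Benjamini-Hochberg adjustment over all 5449 genes and a threshold of 0.05. The fit was tested on simulated data. Ratios used exact permutation tests in scipy 1.17.1. The members and lists were chosen with earlier results of these data known. Named were the members, their neighbours and the 3 nearest profiles of each. From each list above, the called genes or else the one with the smallest p were added. Others are given for their role. Of 4 a-cell and 4 alpha-cell genes, also read, only the alpha-cell gene STE3 was called, with a difference of 0.93 (adjusted p = 0.0312 by limma). Differences ran from 0.14 to 1.38 for the a-cell genes and from -0.21 to 0.93 for the alpha-cell genes. No sequences were used here.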

Additional observations from a re-analysis of the deposited data

Results flagged for a closer look

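Among probe sets outside the genes compared, the array holds 47 reporters, for sequences foreign to yeast. In 1 of them the log2 signal averaged 14.36 with the PHO2 deletion label, against 4.42 in wild-type, where it stayed under the background bound of 6.44 on all 3 arrays. Taken at that bound, the mean with the deletion label was at least 243-fold higher. The sources used here do not name the construct behind it.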

How the results depend on the processing

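IMD2 passed the test in all 14 alternatives that measure it, with differences from 1.37 to 1.57 and adjusted p from 5.4e-04 to 0.0406 by limma. With shared probe sets left out it has no value, and 0 members were called. IMD3, IMD4 and GUA1 kept their sign in all 15 alternatives and passed in none, with GUA1 closest under array weights (adjusted p = 0.0605). GUK1 turned to -0.085 after the length correction (alternative added after the data were seen), and RPB9 turned to -0.0073; the cause was not tested. The PHO2 probe set differed by 0.29 without PHO2 deletion replicate 1 and by -0.48 without PHO2 deletion replicate 2. With 1 array left out, GUK1 lay between 0.05 and 0.16. The number of all genes called was less stable than the call of IMD2: 417 with the arrays quantile normalized again, 638 with array weights, 40 with every probe set tested, 35 with the replicate block, and between 19 and 257 with 1 array left out (23 without wild-type replicate 1, and 19 or 26 without PHO2 deletion replicate 1 or 2). Leaving out an array of the deletion label leaves a lone array, assumed to vary like wild-type. Nothing in the labels says that replicate numbers pair the arrays, and deviations of arrays with the same number correlated at -0.38 and -0.0027. With the replicate block IMD2 differed by 1.49 (adjusted p = 0.0406 by limma), GUA1 by -0.18, IMD3 by -0.11, IMD4 by -0.02 and GUK1 by 0.05, and no member's call changed. Among the other named genes that passed, ADE8, ADE12, APT1, RNR1 and ATG23 missed the threshold with every probe set tested (adjusted p from 0.0526 to 0.13 by limma). With the replicate block these 5 and ADE6 and YCT1 missed it (0.0526 to 0.137). ADE16 passed with array weights (0.0496).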
